A study of Mus musculus with 2 samples.

Results

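Genes for ion pumps and channels of the red cell surface, 7 of the 43346 genes in the tables, were followed in MEL cells: Piezo1, Kcnn4, Slc12a4, Slc12a7, Atp1b1, Atp2b1 and Atp2b4. The genes were taken by name and found by their Ensembl identifiers. MEL is an established mouse erythroleukemia line, blocked at a red cell precursor stage, which makes hemoglobin when dimethyl sulfoxide (DMSO) is added. Polyadenylated RNA was sequenced from cells held in 2% DMSO for 5 days, as 1 group of 2 libraries numbered as biological replicates 1 and 2. In the labels a single cell sample identifier stands on both, and the spread between them may be partly technical. Untreated cells were not analysed here, so the values are levels in treated cells and show no effect of DMSO. The estimated reads came to 26149725 for replicate 1 and 14149299 for replicate 2. A gene with no read is compatible with up to 0.115 CPM in replicate 1 and 0.212 CPM in replicate 2 (counts scaled to the library total, from 3 counts, counting error only). In bulk RNA, fewer cells that express a gene and less RNA per cell cannot be told apart.

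A red cell keeps its volume by moving ions. The sodium-potassium pump (Na,K-ATPase) pairs an alpha subunit, which splits ATP, with a beta subunit, which brings it to the membrane. Plasma membrane calcium pumps hold cell calcium very low. When the cell is squeezed, the stretch-gated channel Piezo1 lets calcium in, and calcium opens the potassium channel encoded by Kcnn4, the Gardos channel, through which the cell loses potassium and water. Potassium-chloride cotransporters of the Slc12 family carry salt out of swollen cells. Inherited changes of human PIEZO1 and KCNN4 cause dehydrated red cells.

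The sequences before the gene starts are shown for 4 genes that span the range of levels. These are Atp2b4 (the highest), Piezo1 and Kcnn4 (the channels) and Atp1b1 (the lowest). Each is the 250 bases before a RefSeq start on build GRCm38.p6, on the strand of the gene. The windows are chr1:133753748-133753997 for Atp2b4 (minus strand), chr7:24370013-24370262 for Kcnn4 (plus), chr8:122551330-122551579 for Piezo1 (minus) and chr1:164458356-164458605 for Atp1b1 (minus). Capitals mark matches, on either strand, to 5 short motifs that are named after the sequences.
Atp2b4: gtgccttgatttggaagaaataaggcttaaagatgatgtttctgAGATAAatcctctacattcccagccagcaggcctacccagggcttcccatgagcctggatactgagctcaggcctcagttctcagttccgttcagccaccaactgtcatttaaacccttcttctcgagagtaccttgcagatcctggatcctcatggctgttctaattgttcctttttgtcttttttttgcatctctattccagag
Kcnn4: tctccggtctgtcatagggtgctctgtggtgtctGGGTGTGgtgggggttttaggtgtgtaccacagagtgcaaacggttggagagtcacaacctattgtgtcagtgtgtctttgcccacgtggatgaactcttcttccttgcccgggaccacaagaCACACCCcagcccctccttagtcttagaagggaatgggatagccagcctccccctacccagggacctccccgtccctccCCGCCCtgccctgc
Piezo1: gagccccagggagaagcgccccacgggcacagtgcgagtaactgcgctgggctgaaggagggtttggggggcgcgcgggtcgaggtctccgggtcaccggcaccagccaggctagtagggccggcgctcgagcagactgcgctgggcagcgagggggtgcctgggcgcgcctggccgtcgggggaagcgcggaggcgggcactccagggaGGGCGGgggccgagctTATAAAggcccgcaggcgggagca
Atp1b1: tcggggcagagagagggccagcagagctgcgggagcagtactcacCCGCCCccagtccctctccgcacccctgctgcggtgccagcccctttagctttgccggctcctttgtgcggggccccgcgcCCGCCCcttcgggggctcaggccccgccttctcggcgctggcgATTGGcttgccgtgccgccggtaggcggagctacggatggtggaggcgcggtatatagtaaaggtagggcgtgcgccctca

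Each of 4 motifs was found in the windows of 1 of the 7 genes. A GATA-type motif, AGATAA, stood before Atp2b4, 206 to 201 bases ahead of the start, and in 9.99% of all 32851 RefSeq windows of this length. The CACCC-box motif CACACCC stood before Kcnn4 on both strands (6.93% of windows). The TATA-box motif TATAAA stood before Piezo1, 24 to 19 bases ahead of the start (12.4%). The CCAAT motif stood before Atp1b1 (33.8%). The GC-box motif GGGCGG was found before the other 6 genes and not before Atp2b4 (32.7%). No matches overlapped in the 4 windows shown. The Atp2b4 window also had the lowest GC content of the 9 windows of these genes, 45.6%, against 58.8% for Kcnn4, 74% for Piezo1 and 70.4% for Atp1b1. The Atp2b4 window belongs to an inner start of the gene: 248 of its bases lie in the intron between exons 1 and 2 of the longer transcript Atp2b4-206 and 2 in exon 2. A match is a description of the letters only. The motifs were chosen after the values were known.

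Levels spanned a wide range. They are given as TPM (transcript abundance scaled to transcript length and library size), which puts genes of unlike length on 1 scale. TPM was not corrected here for GC content, and short transcripts can weigh heavily in it, so comparisons between genes are approximate. Atp2b4 stood highest at 193 ± 9.74 TPM (SD, n = 2), followed by Piezo1 at 58.2 ± 12.9, Kcnn4 at 52.4 ± 23.7 and Atp2b1 at 32.9 ± 16.4. Slc12a4 (5.14 ± 2.38) and Slc12a7 (4.03 ± 1.92) were low, and Atp1b1 (0.86 ± 0.240) was lowest. At least 1 TPM in both libraries was reached by 6 of the 7 genes, against 45.5% of 21474 protein-coding genes and 25.4% of all genes. The median over the 7 genes was 32.9 TPM. Protein-coding genes had a median of 0.6 TPM, and those that reached 1 TPM in both libraries had 15.5.

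Between neighbours in this order, 3 gaps lay between library ranges that did not overlap: Atp2b4 above Piezo1, Atp2b1 above Slc12a4, and Slc12a7 above Atp1b1. The first of these was lost with transcripts of at least 1000 bases, where the ranges of Atp2b4 (57.0 to 106 TPM) and Piezo1 (44.3 to 67.1) overlapped. Piezo1 and Kcnn4 overlapped and changed places, Piezo1 being 1.37-fold higher in replicate 1 and 0.973 times Kcnn4 in replicate 2. Kcnn4 and Atp2b1 also changed places, Kcnn4 being 0.803 times Atp2b1 in replicate 1 and 3.25 times Atp2b1 in replicate 2. Slc12a4 was 1.30-fold and 1.27-fold above Slc12a7 in replicates 1 and 2, but their ranges overlapped. With transcripts of at least 1000 bases their order turned in replicate 1 (Slc12a4 at 0.948 times Slc12a7). With 2 libraries no test of these gaps was made.

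**Figure D1:**
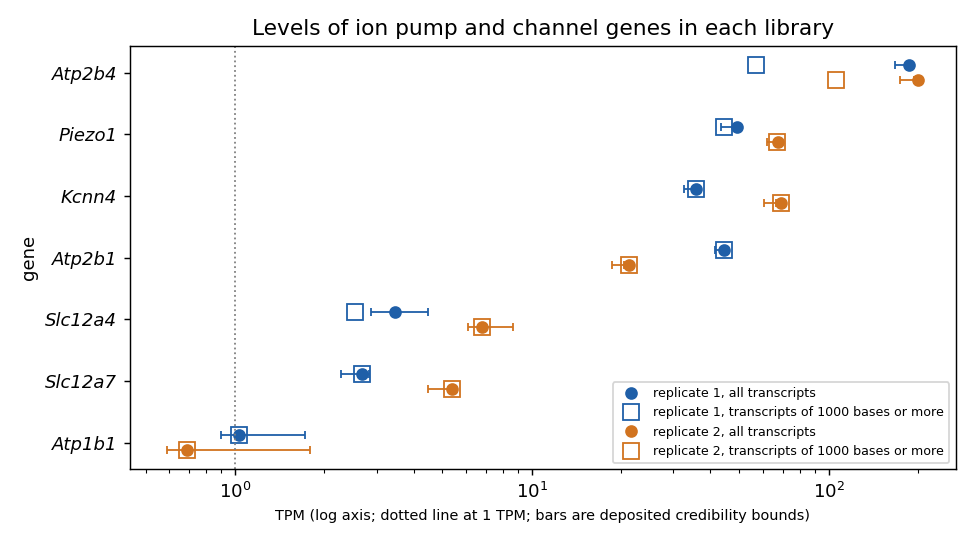
TPM of the 7 genes in each library on a log axis, with filled points for all transcripts, open squares for transcripts of at least 1000 bases and bars for the deposited credibility bounds. Atp2b4 is highest with all transcripts (186 and 200 TPM), and its squares lie far to the left of its points (57.0 and 106 TPM).

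Piezo1 (chromosome 8, 122481698 to 122551329, minus strand, mm10) encodes the channel that opens when the membrane is stretched. It had 49.0 TPM in replicate 1 and 67.3 in replicate 2, from 6980.5 and 6254 estimated reads. The deposited credibility bounds were 43.4 to 50.9 and 62.1 to 69.0 TPM (no source used here names their level). They do not overlap, and replicate 2 was the higher in TPM, a direction that turned in the counts once their trend with GC content was removed. Piezo1 stood above 92.8% of protein-coding genes. Its paralogue Piezo2 had 2 reads in replicate 1 and 0 in replicate 2, so Piezo1 held 99.97% ± 0.043 of the TPM of the pair. Of the genes for auxiliary subunits of Piezo channels, Mdfic had 3 and 0 reads in replicates 1 and 2 and Mdfi had 0 in both.

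The transcripts of Piezo1 were assigned differently in the 2 libraries. Piezo1-204, a transcript of 6317 bases marked for nonsense-mediated decay, took 64.5% of the gene's reads in replicate 1 and 0% in replicate 2. Piezo1-209, a coding transcript of 6598 bases in the deposited tables, took 0% and 43.3%. The coding transcript Piezo1-201 (8216 bases) took 31.3% and 51.7%, and the intron-retaining Piezo1-202 took 3.44% and 4.91%. By TPM, Piezo1-202 held 7.17% and 11.8% of the gene. The coding transcripts together held 11.1 TPM in replicate 1 and 59.1 in replicate 2, while the gene as a whole moved only from 49.0 to 67.3.

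Little sequence separates these transcripts as annotated in GENCODE M21, the source of the sequences. Cut into windows of 45 bases, the length by which the deposited tables shorten a transcript plus 1, Piezo1-204 had 41 of 6273 windows found in no other listed transcript of the gene. Piezo1-201 had 43 of 8172, and Piezo1-209 had 46 of 8175 in its later annotated form of 8219 bases. The deposited form of Piezo1-209 is shorter, at 6598 bases, and windows were not counted with it. The counts of the other transcripts may differ there. Piezo1-202 had 1434 of 2816 windows of its own, and its share of reads was small in both libraries (3.44% and 4.91%). Whether shared sequence moved the assignments was not tested. Exons of Piezo1 overlap those of Ctu2 on the opposite strand over 2441 of 9935 bases. Ctu2 had 39.5 and 134 reads, and whether reads crossed between them was not tested.

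Kcnn4 (chromosome 7, 24370263 to 24386690, plus strand) encodes the calcium-activated Gardos channel. It had 35.7 TPM in replicate 1 and 69.2 in replicate 2, from 1722 and 1885 reads. Replicate 2 was 1.94-fold higher in TPM, and lower in the counts with their GC trend removed. The gene stood above 92.0% of protein-coding genes. The tables list 1 transcript for it, of 2034 bases, which held every read. Kcnn4 held 98.3% ± 0.311 of the TPM of the 4 KCNN channel genes. The related small-conductance channel genes Kcnn1, Kcnn2 and Kcnn3 stayed under 1 TPM, the highest being Kcnn1 at 0.59 and 0.8 TPM in replicates 1 and 2. Phpt1, whose product removes an activating phosphate from the channel, had 11.5 and 17.3 TPM.

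Of the plasma membrane calcium pumps, Atp2b4 (chromosome 1, 133699457 to 133801041, minus strand), the main form in human red cells, had 186 TPM in replicate 1 and 200 in replicate 2. These came from 13439 and 12580 reads, the most of the 7 genes. The bounds, 167 to 188 and 174 to 194 TPM, overlapped. Atp2b4 stood above 98.1% of protein-coding genes. The broadly used pump gene Atp2b1 (chromosome 10, 98914406 to 99026143, plus strand) had 44.5 and 21.3 TPM, from 7633 and 2065 reads. Its bounds of 41.4 to 43.4 and 18.7 to 20.4 were far apart, and it was 2.09-fold higher in replicate 1. These bounds belong to the posterior means, 42.4 and 19.6 TPM, and the deposited TPM lies outside them. TPM also lay above the bounds for Atp2b4 in replicate 2 and for Kcnn4 in both libraries (35.72 against 35.70, and 69.2 against 66.5). All reads of Atp2b1 lie on 1 listed transcript of 7130 bases. Atp2b2 (6 and 0 reads) and Atp2b3 (2 and 32) stayed under 1 TPM, and Atp2b4 held 80.7% and 90.2% of the TPM of the family.

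Short transcripts carried much of the Atp2b4 level. Atp2b4-208, of 243 bases, held 65.1% of the gene's TPM in replicate 1 and 23.9% in replicate 2, with 4.35% and 1.03% of its reads. It lies on chromosome 1 from 133701639 to 133701881, in the 3' untranslated part of exon 21, the last of Atp2b4-206, and its whole sequence is contained in that transcript. Atp2b4-204, a non-coding transcript of 588 bases, held 4.2% and 23.3% of TPM. Counted over transcripts of at least 1000 bases, a choice made after this had been seen, Atp2b4 had 57.0 TPM in replicate 1 and 106 in replicate 2. It was then 1.29-fold and 1.57-fold above Piezo1, not 3.80-fold and 2.97-fold, and it held 56.2% and 82.9% of the calcium pump family.

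Among the long transcripts, Atp2b4-207 (8101 bases) led in both libraries, at 28.8 and 92.7 TPM. It held 41.9% of the gene's reads in replicate 1 and 81.3% in replicate 2. It starts at 133753747, next to the window printed above. Atp2b4-206 (11725 bases), which starts upstream at 133801041, had 17.9 and 9.12 TPM, and Atp2b4-201, with the same start as Atp2b4-207, had 10.3 and 3.71. The whole sequence of Atp2b4-207 is contained in Atp2b4-206, so none of its 8057 windows is its own. No read can be told to be its own by sequence alone, while 3065 of 11681 windows of Atp2b4-206 are found nowhere else in the gene.

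**Figure D2:**
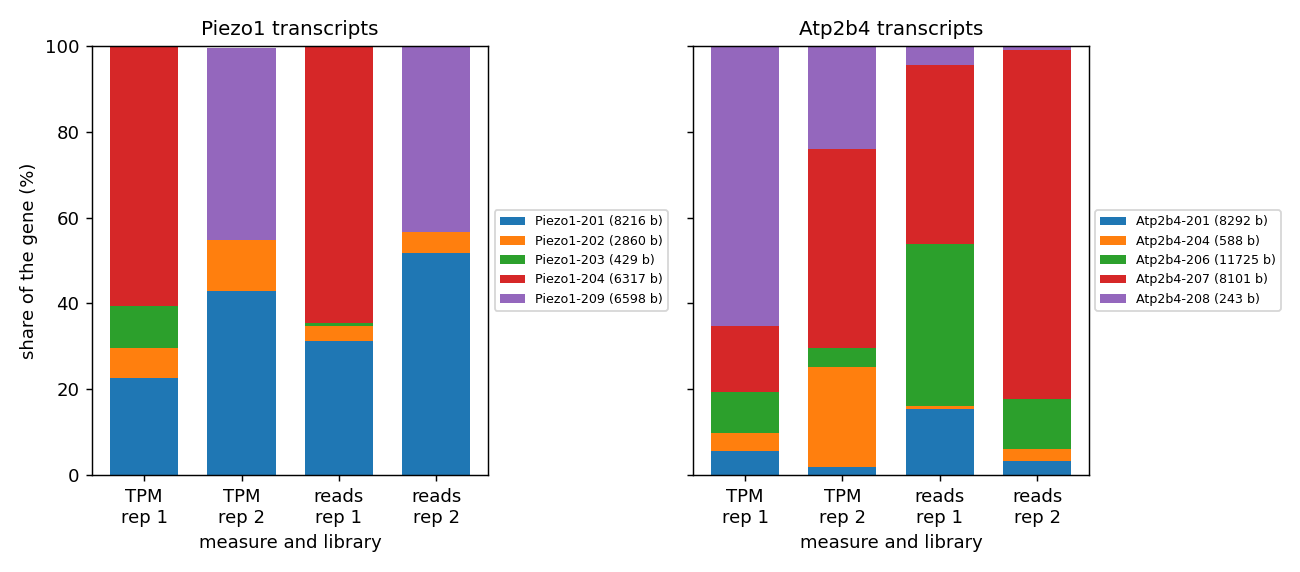
Share of each gene's TPM and of its reads held by each transcript of Piezo1 (left) and Atp2b4 (right) in both libraries, with lengths in bases. Piezo1-204 appears in replicate 1 (64.5% of reads) and Piezo1-209 in replicate 2 (43.3%), and the 243-base Atp2b4-208 is wide by TPM and narrow by reads.

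Both potassium-chloride cotransporter genes of the 7 were low. Slc12a4 (chromosome 8, 105943590 to 105966097, minus strand), which encodes KCC1, had 3.46 TPM in replicate 1 and 6.82 in replicate 2, from 240 and 347 reads. Slc12a7 (chromosome 13, 73733094 to 73816754, plus strand), which encodes KCC4, had 2.67 and 5.38 TPM, from 329 and 375 reads. Both were higher in replicate 2, with bounds that did not overlap between the libraries. Slc12a5, which encodes a related cotransporter known as the neuronal form, had 2.13 and 4.45 TPM.

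Slc12a4-202 (3755 bases) held 73.4% of Slc12a4 TPM in replicate 1 and 100% in replicate 2. The rest lay on 2 intron-retaining transcripts, Slc12a4-204 (13.3% in replicate 1) and Slc12a4-205 (13.4%), with 5.05% of reads. By posterior means Slc12a4-202 held 56.0% of the gene in replicate 1 and 72.9% in replicate 2. Of its 3711 windows of 45 bases, 3 were found in no other listed transcript of the gene. Exons of Slc12a4 share 361 of 4279 bases with the antisense gene Gm16156, which had 0 and 5.39 reads. For Slc12a7 the tables list a single transcript, of 5131 bases.

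Atp1b1 (chromosome 1, 164437109 to 164458355, minus strand), which encodes the beta 1 subunit of the sodium-potassium pump, was close to 1 TPM, the level taken as detected. It had 1.03 TPM in replicate 1 and 0.69 in replicate 2, from 63.2 and 24.1 estimated reads, all on Atp1b1-201 (2580 bases). The deposited posterior means of the gene were 1.29 TPM in replicate 1 and 1.16 in replicate 2, past 1 TPM in both. By posterior means Atp1b1-201 held 75.4% and 54.3% of the gene. The bounds, 0.895 to 1.73 and 0.592 to 1.80 TPM, overlapped. Its exons overlap those of Nme7 on the opposite strand over 575 of 3081 bases. Nme7 had 496 and 308 reads, and its part in the reads of Atp1b1 was not tested.

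The other beta subunit genes were expressed. Atp1b2 had 60.4 and 73.5 TPM and Atp1b3 had 63.6 and 36.1, so Atp1b1 held 0.725% ± 0.140 of the family. The leading member differed between the libraries, Atp1b3 with 50.9% in replicate 1 and Atp1b2 with 66.6% in replicate 2. Fxyd5, which encodes a small regulator of the pump, had 30.4 and 40.1 TPM and was the 1 of 7 FXYD genes detected.

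**Figure D3:**
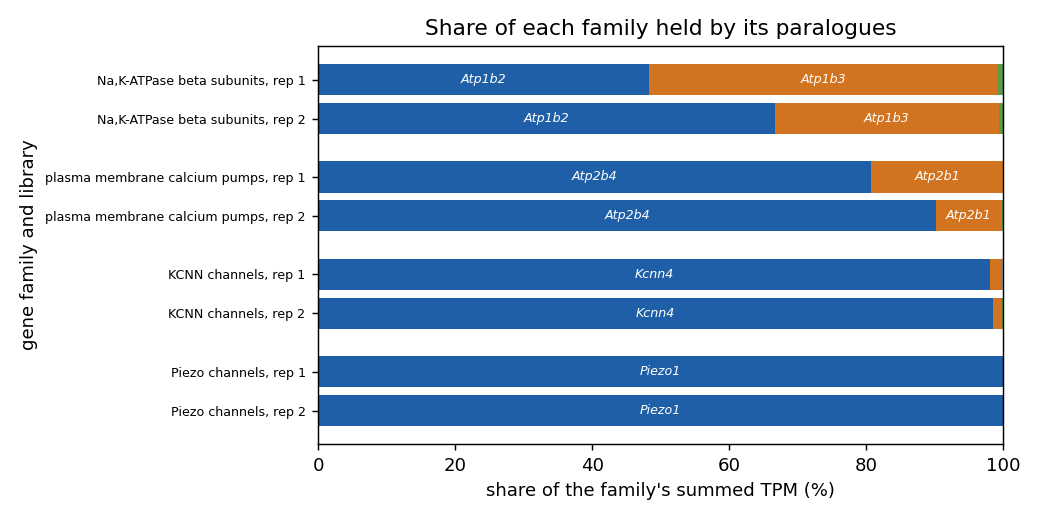
Share of the summed TPM of 4 gene families held by each paralogue, for both libraries. Kcnn4 and Piezo1 fill their families (98.3% and 99.97% on average), Atp2b4 leads the calcium pumps, and Atp1b1 is a thin strip (0.725%) beside Atp1b2 and Atp1b3.

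The ratio between the libraries describes how far their counts differed, and does not measure the spread of TPM. It was taken from counts scaled by TMM as the log2 of replicate 2 over replicate 1, with 1 library against 1 and no p-value. Atp2b1 was lower in replicate 2, with a log2 ratio of -1.25 (95% counting interval -1.32 to -1.18). Slc12a4 was higher, at 1.16 (0.93 to 1.41). These 2 of 7 genes passed 2-fold, against 31.5% of 13522 genes (mean count of 10 or more, 15% higher in replicate 2 and 16.5% higher in replicate 1). The share of the 7 is thus near that of all genes. The others lay at 0.82 for Slc12a7, 0.76 for Kcnn4, 0.54 for Atp2b4, 0.48 for Piezo1 and -0.74 for Atp1b1, whose counting interval ran from -1.50 to -0.058. The intervals cover counting error only.

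The ratio moved with how GC-rich the transcripts were. Over the 9482 genes whose mean count was 100 or more, Spearman's rho was 0.763, a correlation across genes that share both libraries and are not independent replicates. The median gene with 55% to 60% GC stood at 0.80, and the median gene below 45% at -0.92. Atp2b1 had the lowest GC content of the 7, 42.6%, and the lowest ratio. Kcnn4 (60.4%), Piezo1 (58.4%), Slc12a4 (57.2%) and Slc12a7 (54.6%) were all GC-rich and higher in replicate 2, for Piezo1 and Kcnn4 only before the trend was removed. Over the 7 genes rho was 0.54, a description of 7 points from the same pair of libraries.

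With the GC trend removed, Atp2b1 stood at -0.37, Slc12a4 at 0.38 and Slc12a7 at 0.28, and the direction turned for Piezo1 (-0.41) and Kcnn4 (-0.28). Atp2b4 went the other way, from 0.54 to 1.06, with transcripts that averaged 46.1% GC by TPM. Weighted by reads they averaged 48.1% GC, and the ratio was 0.81. Why the ratio followed GC content was not tested.

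**Figure D4:**
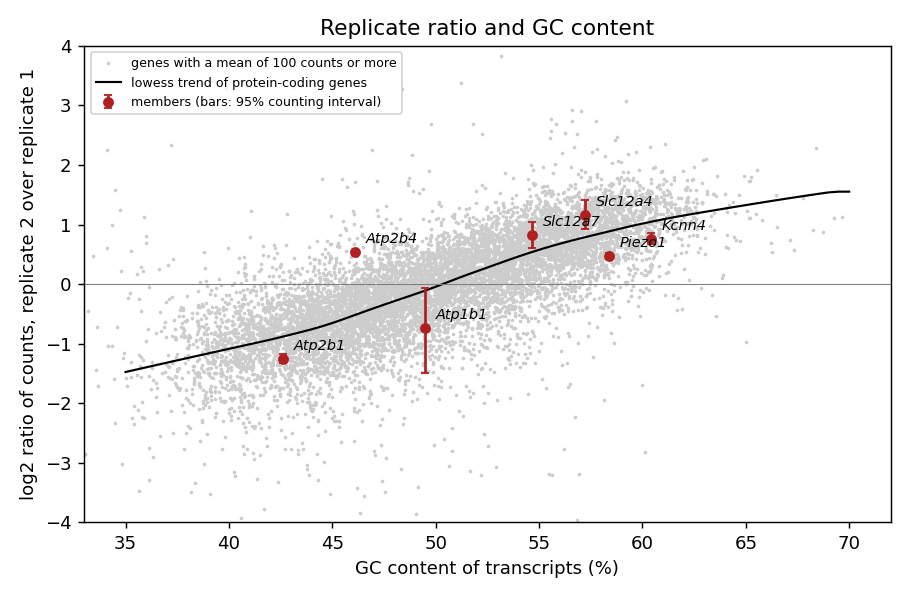
Log2 ratio of counts, replicate 2 over replicate 1, against GC content of transcripts (%), with genes of at least 100 mean counts in grey (51 lie outside the axes), the lowess trend of protein-coding genes as a line and the 7 genes in red with counting intervals. Atp2b1 lies low on the left and Kcnn4, Piezo1, Slc12a4 and Slc12a7 lie on the right above 0 (Piezo1 and Kcnn4 below the line), while Atp2b4 stands above the line.

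Other genes of ion and volume control were read from lists. Of 77 such genes beside the 7, 41 reached 1 TPM in both libraries and 10 had no read in either. Of protein-coding genes 45.5% reached that limit, and of all genes 25.4%. The lists are short, and the counts that follow are descriptions to be read beside these shares. Of 6 kinase genes that act on Slc12 cotransporters, 3 were detected. Wnk1 led at 264 ± 67.5 TPM, from 15802 reads in replicate 1 and 6944 in replicate 2. Whether short transcripts carried the Wnk1 level was not tested. Oxsr1 had 19.1 ± 0.552 TPM, and Stk39 had 0 reads in replicate 1 and 63 in replicate 2. The sodium-potassium-chloride cotransporter gene Slc12a2 had 8.19 and 4.67 TPM in replicates 1 and 2, Slc12a1 had 0.34 and 0, and Slc12a3 had no reads. Of other Slc12 genes, Slc12a9 had 1.06 and 1.78 TPM and Slc12a8 0.08 and 0.12.

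All 5 genes of store-operated calcium entry were detected, led by the calcium sensor gene Stim1 at 34.2 ± 9.02 TPM, as were all 3 IP3 receptor genes, led by Itpr2 at 19.1 ± 1.65. Of 5 intracellular calcium pump genes 3 were detected, with Atp2a3 at 58.7 ± 19.9. Of 5 subunits of the volume-regulated anion channel 4 were, with Lrrc8c at 24.2 and 39.7 TPM in replicates 1 and 2. Its scaled counts went the other way, with a log2 ratio of -0.35 from 2541 and 1283 reads. TRP channels were detected in 3 of 7 cases, led by Trpm7 at 31.9 ± 18.7. Of 4 sodium-calcium exchangers 1 was detected, the mitochondrial Slc8b1 at 2.24 ± 0.955. All 5 genes linked to inherited cation leak of red cells were detected, with the band 3 gene Slc4a1 at 163 ± 21.3 TPM. Slc4a1 had 148 TPM from 2247 reads in replicate 1 and 178 TPM from 3021 in replicate 2. Rhag, of the same list, had 156 TPM from 8660 reads and 97.2 TPM from 3055. Whether short transcripts carried the Slc4a1 level was not tested.

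Within these lists, the gene nearest to each of the 7 over the 2 libraries, by Euclidean distance of log2(TPM + 1) among 83 candidates, was Atp2a3 for Piezo1 (0.17), Abcb6 for Kcnn4 (0.30) and Slc4a1 for Atp2b4 (0.37). It was Trpm7 for Atp2b1 (0.18), Orai2 for Slc12a4 (0.14), Itpr3 for Slc12a7 (0.21) and Atp2c2 for Atp1b1 (0.33). With 2 libraries such likeness is one of level more than of pattern. For Atp2b4 the level was that over all transcripts (186 and 200 TPM in replicates 1 and 2). Over transcripts of at least 1000 bases it was 57.0 and 106 TPM, and likeness was not computed with those values. The Slc4a1 level was likewise that over all transcripts.

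The labelled cell type was checked against its markers. All 11 erythroid markers reached 1 TPM in both libraries. The lowest values were 34.7 TPM in replicate 1 (Epor) and 65.2 in replicate 2 (Tfrc). Of 30 markers of 5 other cell types 4 did, all of them from the 8 megakaryocyte and platelet genes, whose summed level was 95.6 TPM in replicate 1 and 189 in replicate 2, mostly Itga2b (74.7 and 149). Pf4 had 13.7 and 20.1 TPM, Gp1ba 3.6 and 7.31 and Gp9 2.96 and 12.3. Ppbp stayed under 1 TPM, and Gp6 and Treml1 had no read. Summed levels were 0.97 and 2.9 TPM for granulocyte and macrophage markers, 3.25 and 0.95 for lymphocyte, 0.15 and 0.04 for endothelial and 0.41 and 0.77 for fibroblast markers. Among the markers with no read in either library were Ly6g, Elane and S100a8 of granulocytes, Pax5 and Rag1 of lymphocytes, Cdh5 of endothelium and Dcn of fibroblasts. Their part in the levels of the 7 genes was not tested.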

How the data were processed

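Single-end RNA-seq of polyA RNA gave 2 libraries of DMSO-treated MEL cells, 1 group. The build is mm10 and the annotation GENCODE M4, per the labels. No source used here names the program that quantified the reads. Expected counts, TPM, FPKM (used only as an alternative unit), posterior SDs and credibility bounds of the signal, and the percent of a gene held by each transcript were deposited by the authors, per the file headers.

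Symbols, coordinates and transcript sequences came from GENCODE M21 on the same assembly (42462 of 43346 genes matched), promoter windows from RefSeq on GRCm38.p6 (7 of 7 genes). Rows with numeric names (26248, holding 0.0294% and 0.0465% of reads in replicates 1 and 2) and 97 spike-in rows stayed out of counts and lists. Expected counts were rounded, scaled by TMM in edgeR 4.0.16 (R 4.3.3) with a prior count of 1, and compared without a test. DESeq2 1.42.0 gave size factors as an alternative. A gene's GC content was averaged over matched transcripts by TPM (98.8% of genes with at least 100 counts had a value), and its trend was a lowess curve over 8894 protein-coding genes (span 0.3, 3 iterations). A gene was detected from 1 TPM in both libraries. Intervals are exact binomial at 95%. Other steps used Python 3.11.15, pandas 2.3.3, statsmodels 0.14.6 and scipy 1.17.1. The ratio and trend steps were tested on simulated data.

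The genes and lists were chosen with earlier results of these data known. Named were the 7 genes, their family paralogues, the highest gene of each list, the nearest gene in level to each, and transcripts with at least 10% of a gene in either library. Some genes that this rule names are not reported here. Others named were chosen after their values were seen.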

Additional observations from a re-analysis of the deposited data

How the results depend on the processing

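The count of 6 detected genes ran from 4 to 7 under the 7 alternatives tried (limits of 0.5 and 5 TPM, posterior means, FPKM, long transcripts and each library alone). The median level of the 7 genes was 32.9 TPM, and 21.3 to 35.7 TPM with 1 library left out. With mitochondrial, spike-in and numeric rows taken out of TPM, that median was 40.3 TPM, and Atp2b4 stood at 236 TPM in place of 193. The count past 2-fold, 2, became 1 by the ratio of TPM, taken with 0.1 TPM added to each value. Without that addition Slc12a7, 2.01-fold higher in replicate 2, was past 2-fold as well. The count became 1 with the GC trend removed and 0 with that trend read at GC content weighted by reads. By library totals, which shift the median log2 ratio of all genes by 0.26, it was 3, with Kcnn4 (1.02) and Slc12a7 (1.07) past and Atp2b1 no longer past. The ratio of TPM shifts that median by 0.21. Without the GC trend the direction reversed for Piezo1 (-0.41, or -0.43 weighted by reads) and Kcnn4 (-0.28 by both weightings).

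Shares of a family moved beyond the spread of the libraries in 8 cases. By expected counts, which are not per length, Atp2b1 had 25.1%, Atp2b4 74.7% and Kcnn4 96.7%. By posterior means Atp1b1 had 1.10%, Kcnn4 97.8% and Piezo1 99.7%. With transcripts of at least 1000 bases Atp2b1 had 30.2% and Atp2b4 69.5%. The cause was not tested beyond what these constructions change. Depth limits Atp1b1 most, at 63.2 and 24.1 reads. No source used here says whether cultures were separate or whether counting used strand.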
